A study of Mus musculus with 24 samples.

Results

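Bone morphogenetic proteins (BMPs) and the secreted proteins that block them were followed in colon fibroblasts of mice. The set comprised 5 ligands, Bmp2, Bmp3, Bmp4, Bmp5 and Bmp7, and 4 antagonists, Grem1, Nog, Chrd and Chrdl1. They were matched by name, to the probe sets annotated with exactly that symbol. All 9 were measured, of 30827 genes on the array, each by 1 probe set.

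BMPs are secreted factors of the TGF-beta superfamily that bind pairs of type I and type II receptors and act through SMAD transcription factors. In the colon they are known for promoting differentiation toward the top of the crypt, while fibroblasts and muscle cells beneath the crypt base secrete antagonists that hold the signal down around the stem cells. Bmp4 is known as a gene of the gut mesenchyme that responds to Hedgehog ligands from the epithelium, of which Indian hedgehog (Ihh) is the main one in the colon, and Apc restrains Wnt signalling in the epithelium.

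RNA of flow-sorted colon fibroblasts was hybridised to 24 Affymetrix Mouse Transcriptome Arrays. Of these, 9 came from IhhKO-ApcKO mice, written IhhKO_ApcKO below, 8 from IhhWT-ApcKO mice (ApcKO) and 7 from IhhWT-ApcWT mice (WT). KO stands for a deletion driven in the epithelium, of both genes in IhhKO_ApcKO. All 3 groups are labelled with Villincre-ERT2 and ZsGreen, a Cre recombinase driven by the Villin promoter, which is active in intestinal epithelium, and a fluorescent reporter, so the controls carry them too. The cells were gated as negative for Epcam, CD45 and CD31 and positive for gp38, the product of Pdpn, and age, sex and time after recombination were not given in the sources used here. Because the deletion is driven in the epithelium, the fibroblasts measured here are neighbours of the recombined cells. Each array has a code of a letter and a number, by which arrays are named below. The labels do not say that each code is a separate mouse, so p-values measure the spread between these samples, which may be technical.

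Values are log2 values after robust multi-array averaging (RMA), in which 1 unit is a doubling of signal. Differences are log2 differences from a limma model of all 30827 genes, given with its standard error (SE), and a gene was called at an adjusted p under 0.05. As the brightness of a probe set also depends on its sequence, levels were compared between arrays and not between genes.

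Promoter sequences from RefSeq (GRCm38.p6, 250 bases before to 50 bases after a start site) were found for 4 of the 9 genes, Bmp4, Bmp5, Grem1 and Chrd. Those of Bmp4 and Bmp5, the pair of genes that varied together most closely between arrays, and that of Grem1, which varied with neither, are given 5′ to 3′ on the gene's own strand. The Bmp4 window is chr14:46390620-46390919 on the minus strand, the Bmp5 window is chr9:75775115-75775414 on the plus strand, and the Grem1 window is chr2:113758599-113758898 on the minus strand. Capitals mark a match to one of 4 motifs.
Bmp4: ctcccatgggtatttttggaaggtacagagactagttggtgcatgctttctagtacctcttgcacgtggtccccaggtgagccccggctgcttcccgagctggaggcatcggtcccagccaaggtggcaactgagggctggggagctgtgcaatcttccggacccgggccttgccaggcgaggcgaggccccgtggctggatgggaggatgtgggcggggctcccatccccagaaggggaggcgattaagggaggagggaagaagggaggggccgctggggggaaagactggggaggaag
Bmp5: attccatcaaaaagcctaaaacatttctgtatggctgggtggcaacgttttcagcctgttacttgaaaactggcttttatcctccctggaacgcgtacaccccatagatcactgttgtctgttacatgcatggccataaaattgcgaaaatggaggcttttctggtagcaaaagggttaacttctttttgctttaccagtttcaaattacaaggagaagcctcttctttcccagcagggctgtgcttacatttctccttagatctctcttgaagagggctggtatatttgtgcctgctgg
Grem1: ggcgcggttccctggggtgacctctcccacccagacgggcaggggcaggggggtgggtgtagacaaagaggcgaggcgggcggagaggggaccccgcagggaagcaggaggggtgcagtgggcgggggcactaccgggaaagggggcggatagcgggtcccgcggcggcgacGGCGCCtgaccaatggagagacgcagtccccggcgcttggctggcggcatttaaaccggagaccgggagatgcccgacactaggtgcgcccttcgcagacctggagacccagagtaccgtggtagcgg

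The motifs were GACCACCCA for GLI factors of the Hedgehog pathway, CTTTGAT for the TCF/LEF factors of Wnt signalling, TGTTTAC for forkhead factors and GGCGCC for SMADs, each searched on both strands. Neither the Bmp4 nor the Bmp5 window held any of them. Grem1 and Chrd each held 1 match to the SMAD motif, 78 and 203 bases before the start site of their window. The Chrd window, chr16:20732877-20733176 on the plus strand, lies inside the annotated gene, which begins at 20731425. Its match is therefore not upstream of the gene. Of all 32851 mouse promoter windows, 0.25% held the GLI motif, 3.73% the TCF/LEF motif, 3.65% the forkhead motif and 11.87% the SMAD motif. The windows also differed in base composition, with 64.0% G and C and 12 CpG dinucleotides in Bmp4, 43.3% and 4 in Bmp5, and 70.7% and 28 in Grem1, where the median over all windows was 52.7% and 7. The pair that varied together held none of these motifs, each of which most windows lack, and differed in GC content.

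Hedgehog target genes in the fibroblasts checked the genotype labels, since the fibroblasts themselves are not the deleted cells. Gli1, a transcription factor induced by Hedgehog signals, averaged 6.92 ± 0.42 in IhhKO_ApcKO (SD, n = 9), against 8.22 ± 0.14 in ApcKO (n = 8) and 8.09 ± 0.08 in WT (n = 7). The Hedgehog receptor Ptch1 averaged 8.33 ± 0.54, 9.64 ± 0.33 and 9.60 ± 0.19 in the same 3 groups. On the library labelled IhhKO_ApcKO B9, Gli1 was 7.99 and Ptch1 9.53, in or beside the range of arrays with intact Ihh, so results are also given without it. The code letter is C on the other 8 IhhKO_ApcKO arrays, B on all ApcKO arrays but A9, and A on all WT arrays. What the letter stands for is not given in the sources used here, and apart from these 2 arrays letter and genotype cannot be told apart.

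The cells carried fibroblast markers on every array, with Pdpn between 10.70 and 11.08. The mean of 10 general fibroblast markers lay between 10.47 and 10.85 in IhhKO_ApcKO, 10.64 and 10.90 in ApcKO, and 10.73 and 10.95 in WT. Ptprc, which encodes CD45, averaged 2.99, 2.92 and 2.94 in these groups, within the range of the antigenomic background probe sets, whose array medians lay between 2.68 and 3.15. Epithelial markers were uneven despite the gate: the mean of 16 such genes ranged from 5.54 to 8.32 in IhhKO_ApcKO, from 6.29 to 8.28 in ApcKO and from 5.86 to 8.12 in WT. Their differences were negative for 16 of 16 in IhhKO_ApcKO against ApcKO (median -0.26) and positive for 15 of 16 in ApcKO against WT (median 0.48), with 0 at an unadjusted p under 0.05 in either. Of 8 smooth muscle and myofibroblast markers, 7 had a negative difference between IhhKO_ApcKO and ApcKO, with a median of -0.38 and 0 called; 7 of 8 had an unadjusted p under 0.05, as did 4.94% of all genes. In such bulk samples, fewer cells of a type and less RNA per cell cannot be told apart.

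No ligand separated the genotypes. Bmp4 had its lowest, median and highest values at 10.14, 10.53 and 10.80 in IhhKO_ApcKO, at 9.98, 10.51 and 10.64 in ApcKO, and at 9.79, 10.43 and 10.72 in WT. The 3 ranges overlapped over most of their length, and the lowest WT value belonged to A2, 0.61 below the next WT array. Group means were 10.42 ± 0.24 in IhhKO_ApcKO (SD, n = 9), 10.43 ± 0.23 in ApcKO (n = 8) and 10.40 ± 0.29 in WT (n = 7). The Hedgehog target genes Gli1 and Ptch1 fell on the same arrays by 1.31 (SE 0.13) and 1.32 (SE 0.18) in IhhKO_ApcKO against ApcKO, while Bmp4 was at -0.01 (SE 0.12, 95% interval -0.25 to 0.23).

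Bmp5, of the same branch of the family as Bmp7, had its lowest, median and highest values at 9.50, 10.04 and 10.37 in IhhKO_ApcKO, at 9.56, 10.11 and 10.33 in ApcKO, and at 9.53, 9.96 and 10.43 in WT. Arrays within a genotype thus lay nearly 1 unit apart, and the 3 ranges nearly coincided. Bmp7 had 7.77, 8.33 and 8.65 in IhhKO_ApcKO, 8.01, 8.31 and 8.60 in ApcKO, and 7.88, 8.13 and 9.01 in WT. Its widest group was WT, where A5 held the highest value of all 24 arrays and A4 the lowest of its group.

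Bmp2, the close relative of Bmp4, averaged 7.47 ± 0.21 in IhhKO_ApcKO, 7.50 ± 0.11 in ApcKO and 7.48 ± 0.22 in WT, with single arrays from 7.09 to 7.83. Bmp3, which is known to oppose other BMPs rather than to activate their receptors, averaged 6.36 ± 0.23 in IhhKO_ApcKO, 6.39 ± 0.25 in ApcKO and 6.48 ± 0.34 in WT. Its highest value, 7.22, was that of WT A5, and the other 6 WT arrays lay at or below 6.48. The group means of Bmp2, Bmp5 and Bmp7 had the same order, ApcKO over WT over IhhKO_ApcKO, while Bmp3 and Bmp4 each had another. No neighbours in any of these orders differed beyond their spread.

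Grem1, the antagonist made beneath the crypt base that binds Bmp2 and Bmp4, had its lowest, median and highest values at 8.98, 9.38 and 9.62 in IhhKO_ApcKO, at 8.70, 9.30 and 9.44 in ApcKO, and at 8.97, 9.16 and 9.55 in WT. The lowest IhhKO_ApcKO array was B9 and the lowest ApcKO array was A9, the pair whose code letter departs from that of its group. Group means were 9.33 ± 0.22 in IhhKO_ApcKO (SD, n = 9), 9.23 ± 0.23 in ApcKO (n = 8) and 9.24 ± 0.23 in WT (n = 7).

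Chrdl1, a chordin-like secreted BMP antagonist encoded on the X chromosome, was the member with the widest gap between genotypes. It had its lowest, median and highest values at 6.01, 6.53 and 7.06 in IhhKO_ApcKO, at 6.19, 6.87 and 6.97 in ApcKO, and at 6.53, 6.94 and 7.39 in WT. The ranges overlapped in every pair of genotypes, although 8 of 9 IhhKO_ApcKO arrays lay below the WT mean. Group means were 6.56 ± 0.37 in IhhKO_ApcKO (SD, n = 9), 6.77 ± 0.26 in ApcKO (n = 8) and 6.92 ± 0.29 in WT (n = 7).

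Nog, the gene of noggin, which binds BMPs and keeps them from their receptors, averaged 5.46 ± 0.11 in IhhKO_ApcKO, 5.40 ± 0.20 in ApcKO and 5.39 ± 0.15 in WT, with single arrays from 4.99 to 5.70. These values lie above the antigenomic probe sets but below the 95th percentile of the 5222 negative control probe sets, 8.21, whose median was 4.65. Bmp2, Bmp3, Chrd and Chrdl1 also lay below 8.21 on every array, so whether these 5 genes were above background depends on the control set. The same holds for part of the arrays of Bmp7, which ranged from 7.77 to 9.01. Chrd, the gene of chordin, averaged 6.94 ± 0.05 in IhhKO_ApcKO, 6.93 ± 0.08 in ApcKO and 6.93 ± 0.08 in WT. It was the steadiest of the 9, with all 24 arrays between 6.80 and 7.08.

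**Figure D1:**
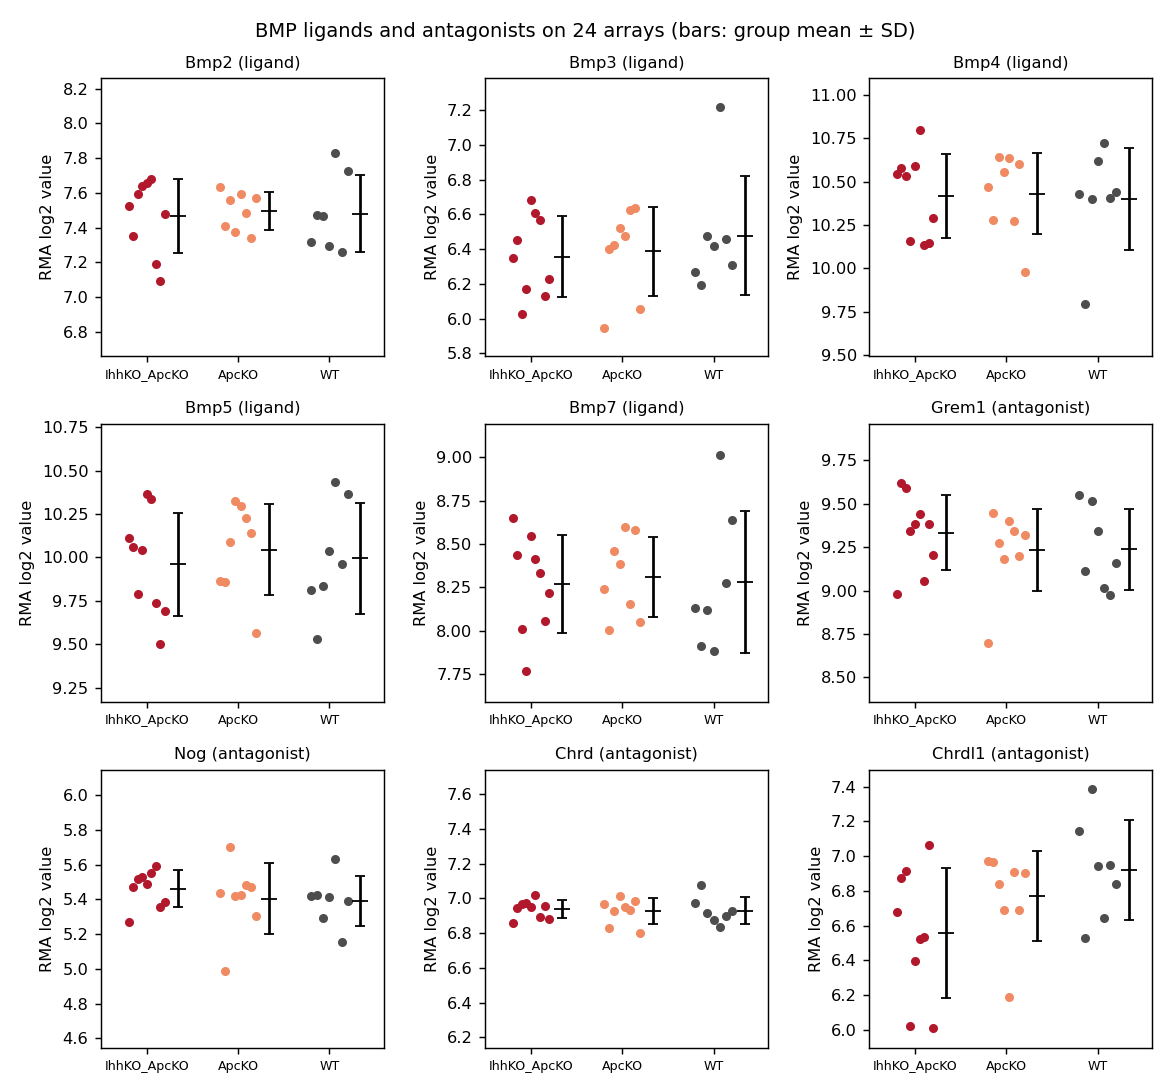
RMA log2 values of the 5 ligands and 4 antagonists, 1 panel per gene with the same span of the vertical axis, each point 1 array and each bar the group mean ± SD for IhhKO_ApcKO (n = 9), ApcKO (n = 8) and WT (n = 7). The groups overlap in all 9 panels, and Chrdl1, at 6.56, 6.77 and 6.92, has the widest gap between group means.

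The comparison of IhhKO_ApcKO with ApcKO asked what loss of epithelial Ihh adds once Apc is lost. None of the members was called, with 0 of 9 at an adjusted p under 0.05, where 0.0454% of all genes were called (14 genes), and 0 of 9 at an unadjusted p under 0.05, where 4.94% were. All 9 overlapped between the groups, and 0.0227% of all genes did not. The 5 ligands lay between -0.09 for Bmp5 (SE 0.13) and -0.01 for Bmp4, all on the negative side, with 95% intervals reaching from 0.780-fold to 1.19-fold. Grem1 was at 0.10 (SE 0.10), Nog at 0.06 (SE 0.07), Chrd at 0.01 (SE 0.04) and Chrdl1 at -0.21 (SE 0.14), and the intervals of the antagonists reached from 0.704-fold to 1.25-fold. The limma adjusted p was 0.99986 for each of the 9. Without B9 the differences were -0.03 for Bmp4, 0.14 for Grem1 and -0.23 for Chrdl1. The median absolute difference of the 9 members was 0.040, against 0.047 over all genes.

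Loss of Apc with Ihh intact is described by ApcKO against WT. Again 0 of 9 members were called, as were 0% of all genes, and 0 of 9 passed an unadjusted p under 0.05, where 4.41% of genes did. All 9 overlapped, and 0.00649% of genes did not. The ligands lay between -0.09 for Bmp3 (SE 0.13) and 0.05 for Bmp5 (SE 0.14), with intervals from 0.776-fold to 1.27-fold. Grem1 was at -0.0044 (SE 0.11), Nog at 0.01 (SE 0.08), Chrd at -0.0031 (SE 0.04) and Chrdl1 at -0.15 (SE 0.15), with intervals from 0.726-fold to 1.17-fold. The lowest limma adjusted p among the 9 was 0.970. Their median absolute difference was 0.027, against 0.054 over all genes.

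IhhKO_ApcKO against WT gives the joint effect of both deletions. It shares its arrays with the other comparisons, which also share the ApcKO arrays between them, so the 3 are not independent. Here 0 of 9 members were called, where 0.0811% of all genes were (25 genes), and all 9 overlapped, where 0.0714% of genes did not. Chrdl1 was at -0.36 (SE 0.15, 95% interval -0.67 to -0.06, or 0.630-fold to 0.960-fold), and its p of 0.0213 before adjustment became a limma adjusted p of 0.545. At an unadjusted p under 0.05 it was 1 of 9 members, beside 7.62% of all genes. The other 8 had an unadjusted limma p of at least 0.360. The ligands lay between -0.12 for Bmp3 (SE 0.13) and 0.02 for Bmp4 (SE 0.12), with intervals from 0.764-fold to 1.22-fold. Grem1 was at 0.10 (SE 0.11) and Nog at 0.07 (SE 0.08). The median absolute difference of the members was 0.036, against 0.058 over all genes.

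As Chrdl1 is X-linked and the labels name no sex, its difference between IhhKO_ApcKO and WT was also fitted with the level of Xist, a marker of female cells, as a covariate, which gave -0.39. With the epithelial marker mean as a covariate it was -0.37, and without B9 it was -0.38. With the code letter as a block it was -0.0095, an estimate that rests on A9 and B9.

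**Figure D2:**
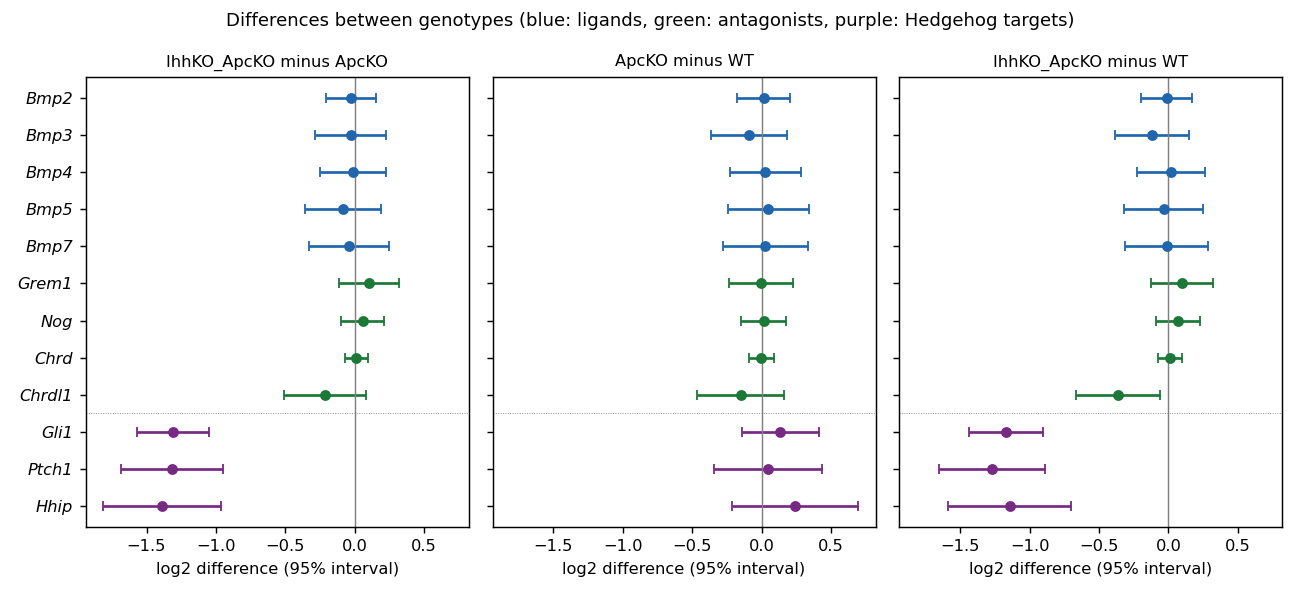
Differences between genotypes in log2 units with their 95% intervals, for the 5 ligands (blue), the 4 antagonists (green) and the Hedgehog targets Gli1, Ptch1 and Hhip (purple), 1 panel per comparison. Every interval of the members includes 0 except that of Chrdl1 in IhhKO_ApcKO minus WT (-0.67 to -0.06), while in both comparisons with IhhKO_ApcKO the Hedgehog targets lie at -1.15 or lower.

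Within each genotype the ligands varied between arrays by more than their group means differed. The residual SD of Bmp3, Bmp4, Bmp5 and Bmp7, taken after removing the genotype means, stood at the percentiles 92.4, 90.4, 93.6 and 94.6 of all genes, and that of Chrdl1 at 94.8. Bmp2 stood at the percentile 73.2, Grem1 at 86.0, Nog at 54.0 and Chrd at 0.99. On WT A5 all 5 ligands had their highest WT value, and on WT A2, Bmp3, Bmp4 and Bmp5 all had the lowest. On ApcKO B8, Bmp4 and Bmp5 were the lowest of that group. Bmp3, Bmp4 and Bmp5 were therefore high or low on the same WT arrays.

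This shared variation was measured as the correlation of deviations from the genotype mean over the 24 arrays, with a permutation test within genotypes, adjusted over 63 relations (36 pairs of members and 27 of a member with a marker list). Of the 36 pairs, 5 passed, all positive and all among the 10 pairs of ligands. Bmp4 and Bmp5 had r = 0.76 and rho = 0.72 (permutation p = 6e-05, adjusted 0.0017), Bmp3 and Bmp5 r = 0.69 and rho = 0.70 (adjusted permutation p = 0.0039), and Bmp5 and Bmp7 r = 0.68 and rho = 0.68 (adjusted permutation p = 0.0069). Bmp3 and Bmp7 had r = 0.68 and rho = 0.60 (adjusted permutation p = 0.011), and Bmp4 and Bmp7 r = 0.62 and rho = 0.59 (adjusted permutation p = 0.020). Bmp2 was the ligand outside this group, with its closest relation to Bmp5 at r = 0.51.

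Leaving out the 2 arrays farthest from the median of the first gene kept r at 0.64 for Bmp4 and Bmp5, 0.65 for Bmp3 and Bmp5, 0.63 for Bmp5 and Bmp7 and 0.57 for Bmp4 and Bmp7, each with an adjusted permutation p under 0.05. For Bmp3 and Bmp7 it gave 0.54 without A5 and A9 (adjusted permutation p = 0.083), so that the call of this relation rests on those arrays. Within genotypes r was 0.75 in IhhKO_ApcKO, 0.74 in ApcKO and 0.78 in WT for Bmp4 and Bmp5, and it was positive in all 3 genotypes for each of the 5 pairs. Within a single genotype, 0 of these pairs passed the adjusted exact permutation test. Both genes of a pair were read on the same arrays, so their values share the RNA sample, labelling and normalisation.

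Between antagonists and ligands, 0 of 20 relations passed. Grem1 had r between -0.31 (with Bmp7) and 0.09 (with Bmp4) to the 5 ligands, Chrd between -0.17 and 0.06, Nog between 0.30 and 0.34 and Chrdl1 between -0.39 and 0.04. Whether these correlations differ from those between ligands was not tested. On WT A5, where all 5 ligands were highest, Grem1 was at 9.01, next to the lowest WT array.

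**Figure D3:**
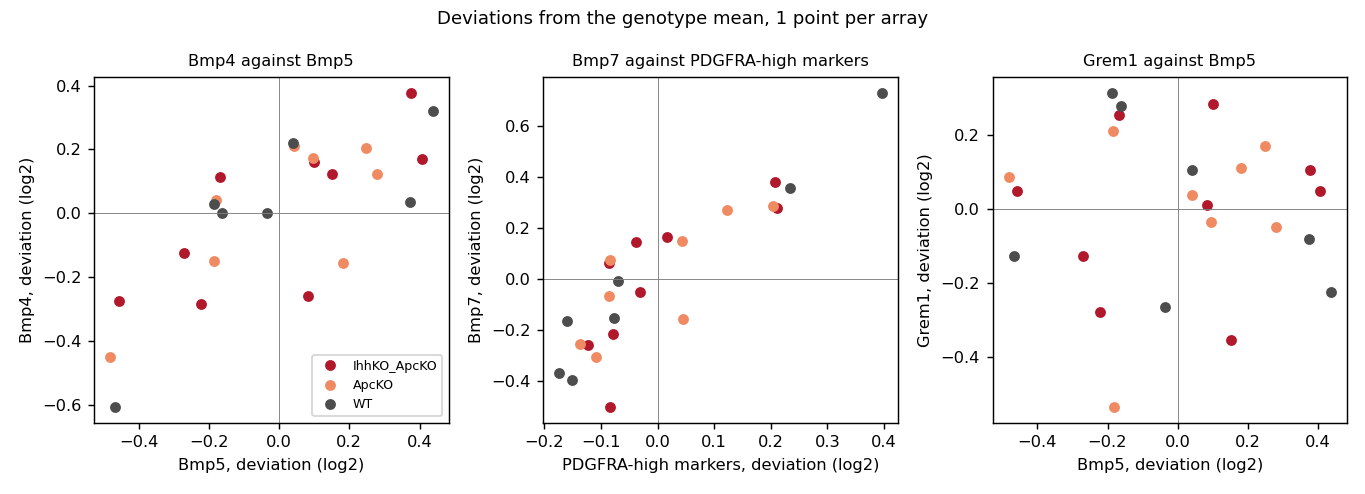
Deviations from the genotype mean in log2 units, 1 point per array (n = 24) coloured by genotype, for Bmp4 against Bmp5 (r = 0.76), Bmp7 against the mean of the PDGFRA-high fibroblast markers (r = 0.88) and Grem1 against Bmp5 (r = -0.02). The first 2 panels rise from left to right with arrays of all 3 genotypes along the slope, and the third has no slope.

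The same deviations were set against 3 marker lists, for epithelium, for subepithelial PDGFRA-high fibroblasts, which line the epithelium, and for CD34-positive fibroblasts of the crypt base and adventitia. The PDGFRA-high list (F3, Foxl1, Nrg1, Sox6, Wnt5a and Wnt5b, 6 of 7 listed) had array means from 6.87 to 7.21 in IhhKO_ApcKO, 6.92 to 7.26 in ApcKO and 6.76 to 7.33 in WT. The listed gene without a measurement was Pdgfra itself. The brightest of the 6, F3, averaged 7.95, below the 95th percentile of the negative controls, 8.21. The CD34-positive list (7 of 8 listed) had array means from 8.56 to 9.04 in IhhKO_ApcKO, 8.59 to 8.82 in ApcKO and 8.52 to 8.87 in WT. Both lists overlapped between all genotypes. Of their genes 1 was called, the growth factor Nrg1, at 0.90 (SE 0.17, limma adjusted p = 0.034) in IhhKO_ApcKO against WT, where 0.0811% of all genes were called. Its list did not follow it there as a whole: 3 of the 6 genes, Nrg1 included, had a positive difference and 3 a negative one. Foxl1 was at -0.32 (SE 0.07), F3 at -0.17 and Wnt5a at -0.05. Sox6 averaged 6.88 in IhhKO_ApcKO and 6.83 in WT, and Wnt5b 6.12 in both. The median difference of the 6 genes was -0.026. In IhhKO_ApcKO against ApcKO, 5 of the 6 had a negative difference, with a median of -0.15. The unadjusted limma p was under 0.05 for 3 of 6 there, beside 4.94% of all genes. Foxl1 was at -0.37 (SE 0.07, limma adjusted p = 0.051) and Nrg1, the 1 positive gene, at 0.69 (SE 0.16). In ApcKO against WT all 6 were positive, with a median of 0.11 and 0 at an unadjusted p under 0.05.

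Bmp7 followed the PDGFRA-high list most closely, with r = 0.88 and rho = 0.85 (adjusted permutation p = 0.0006), and with r at 0.78 in IhhKO_ApcKO, 0.80 in ApcKO and 0.97 in WT. Bmp5 had r = 0.72 (rho = 0.71, adjusted permutation p = 0.0022) and Bmp3 r = 0.63 (rho = 0.57, adjusted permutation p = 0.020). Without A5 and A8, the arrays farthest from the median of that list, r was 0.78 for Bmp7, 0.61 for Bmp5 and 0.53 for Bmp3, and only the relation of Bmp3 no longer passed (adjusted permutation p = 0.11). Arrays high in the 6 measured markers of subepithelial fibroblasts were thus high in these 3 ligands. The part of the mix of sorted cells in these relations was not tested.

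The CD34-positive list ran the other way. Bmp5 had r = -0.73 (rho = -0.67, adjusted permutation p = 0.0017), Bmp2 r = -0.72 (rho = -0.72, adjusted permutation p = 0.0069) and Bmp4 r = -0.60 (rho = -0.63, adjusted permutation p = 0.014). These 3 relations did not pass once each array was centred on the median of all genes, at r = -0.47 for Bmp5, -0.52 for Bmp2 and -0.32 for Bmp4 (adjusted permutation p of 0.12, 0.11 and 0.31). For Bmp2 the relation was also uneven, with r at -0.88 in IhhKO_ApcKO, -0.03 in ApcKO and -0.73 in WT. The array with the highest CD34-positive mean, C7 at 9.04, had the lowest Bmp2 and Bmp5 of its group, at 7.09 and 9.50, and the highest Chrdl1, at 7.06.

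Of the antagonists, 0 of 4 passed with any of the 3 lists. Chrdl1 was at r = 0.51 with the CD34-positive list (adjusted permutation p = 0.086), which became 0.61 with median centring (adjusted permutation p = 0.024). Chrd was at r = -0.47 with the epithelial list (adjusted permutation p = 0.093), which became -0.65 (adjusted permutation p = 0.0057). Grem1 was at -0.41 with the epithelial list and at 0.18 with the CD34-positive list. Epithelial markers had no relation to a ligand that passed, with r between -0.33 for Bmp5 and 0.19 for Bmp7.

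**Figure D4:**
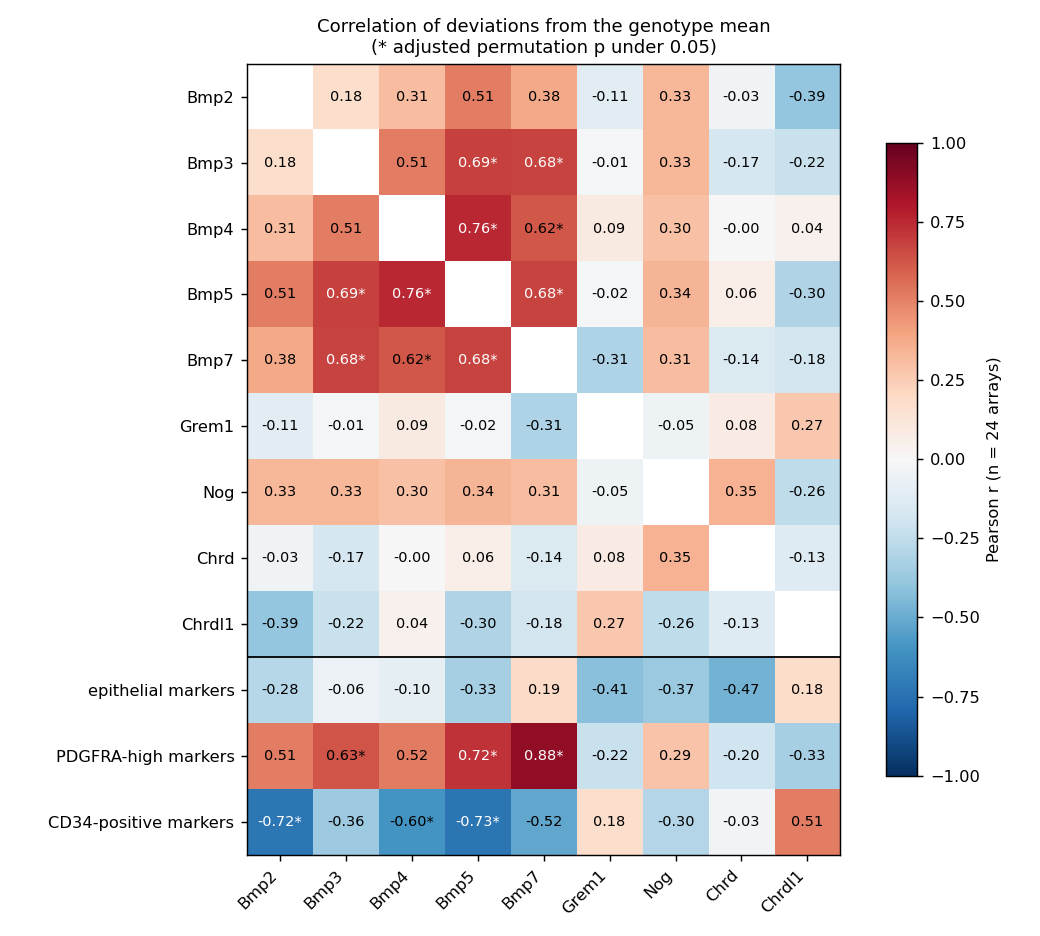
Pearson r of deviations from the genotype mean over 24 arrays, for each pair of the 9 genes and for each gene with the means of 3 marker lists, on a scale from -1 (blue) to 1 (red), with an asterisk where the adjusted permutation p is under 0.05. The 5 asterisks between genes all lie among Bmp3, Bmp4, Bmp5 and Bmp7, and 6 more mark ligands against the PDGFRA-high and CD34-positive lists.

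Genes with the most similar pattern were named for each member as the 3 with the highest r of deviations among 19238 protein-coding genes, as a description. For Bmp4 they were the growth hormone receptor Ghr (r = 0.88), Wfdc1 (0.83) and the transcription factor Dach1 (0.82). For Bmp5 they were Septin4 (0.89), Fry (0.87) and again Dach1 (0.86), and Bmp5 itself ranked 24 in the order of Bmp4. For Bmp7 they were the adhesion receptor Adgrl3 (0.83), the calcium-binding Casq2 (0.82) and the Wnt ligand Wnt5a (0.81), a member of the PDGFRA-high list. For Bmp3 they were the histone demethylase Kdm5b (0.84), Syt17 (0.80) and the smooth muscle protein Smtn (0.78). For Bmp2 r reached only 0.72 (Trpv2).

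For Grem1 they were the signal peptidase subunit Spcs2 (r = 0.85), the elongator subunit Elp5 (0.77) and the ubiquitin ligase Syvn1 (0.77). For Chrdl1 they were Ppp1r11 (0.77), Hmgn3 (0.72) and the secreted protein Serpinf1 (0.71). For Chrd the highest was the mitochondrial carrier Slc25a29 (0.78) and for Nog it was Pbxip1 (0.72). No gene stood in the top 3 of both a ligand and an antagonist. With only 3 of 19238 genes named per member, lists of unrelated members would seldom share a gene, so this says little about their relation.

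The wider BMP pathway was read from the same fit through a list of 58 measured genes. In none of the 3 comparisons was any of the 58 called in either direction. Among all genes, 0.00324% were called higher and 0.0422% lower in IhhKO_ApcKO against ApcKO, 0% each way in ApcKO against WT, and 0.00973% higher and 0.0714% lower in IhhKO_ApcKO against WT. At an unadjusted limma p under 0.05 there were 4, 4 and 9 of the 58 in these comparisons, or 6.9%, 6.9% and 15.5% of them, beside 4.94%, 4.41% and 7.62% of all genes. Their median difference was -0.00092, -0.031 and -0.036, against 0.011, -0.021 and -0.011 over all genes.

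Target genes of BMP signalling stood at the top of the list in ApcKO against WT, without passing. Atoh8, a helix-loop-helix factor induced by BMPs, averaged 6.40 ± 0.13 in ApcKO (SD, n = 8) and 6.71 ± 0.07 in WT (n = 7), a difference of -0.31 (SE 0.06). All 8 ApcKO arrays lay below the WT mean, and although this was the smallest p of all genes its limma adjusted p was 0.47. Both means of Atoh8 lay below the 95th percentile of the negative controls, 8.21. Id2 and Id3, inhibitors of DNA binding that are classical BMP targets, were at -0.34 (SE 0.10) and -0.25 (SE 0.08), both with a limma adjusted p of 0.970. Id1 and Id4 of the same family did not fall alike, at 0.04 (SE 0.09) and -0.12 (SE 0.11). Of the 10 target genes, 8 had a negative difference, with a median of -0.064.

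In IhhKO_ApcKO against ApcKO the target genes had 3 of 10 negative differences and a median of 0.037. Atoh8 was at 0.13 (SE 0.05), Bambi, a pseudoreceptor that dampens BMP signals, at 0.23 (SE 0.10) and Twsg1, a secreted modulator that binds BMPs together with chordin, at -0.21 (SE 0.09), with limma adjusted p-values of 0.86 to 0.92. In IhhKO_ApcKO against WT the smallest p-values were those of the co-receptor Rgmb at -0.27 (SE 0.07, adjusted p = 0.16), Bambi at 0.36 (SE 0.10, adjusted p = 0.23) and the protease Htra1 at -0.33 (SE 0.09, adjusted p = 0.24), all from limma. Rgmb and Htra1 lay below the WT mean on all 9 IhhKO_ApcKO arrays and Bambi above it on 8 of 9. Of the 10 target genes, 7 had a negative difference in IhhKO_ApcKO against WT, with a median of -0.077. An unadjusted limma p under 0.05 was reached by 3 of 10, beside 7.62% of all genes. Atoh8 was at -0.17 there (SE 0.06, limma adjusted p = 0.35).

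**Figure D5:**
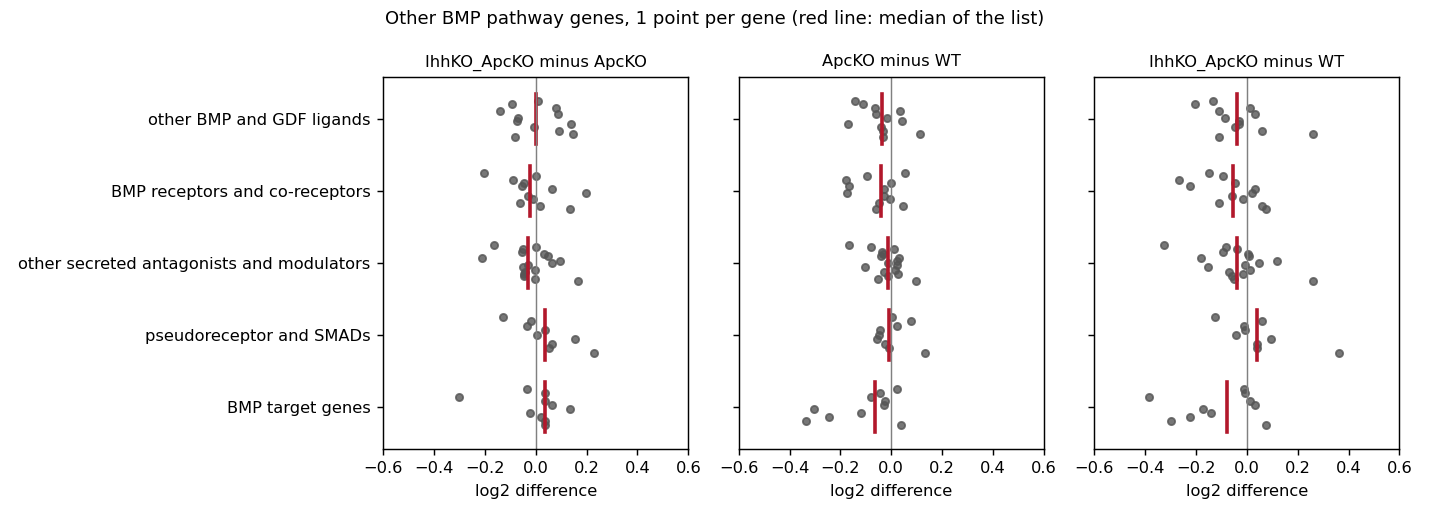
Differences in log2 units of the other BMP pathway genes, 1 point per gene in 5 groups by role, with the median of each group as a red line and 1 panel per comparison. All medians lie within 0.08 of 0, and the points of the target genes in ApcKO minus WT reach -0.34.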

How the data were processed

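The authors deposited log2 values made with RMA, per the submitters' processing notes. Which software version, probe set annotation and genome build they used is not given in the sources used here. The table holds 72688 probe sets, of which 6732 are controls. Genes were named from GEO's platform annotation with symbols updated through RefSeq: 31388 transcript clusters had 1 symbol, 1362 several and 33206 none, and the brightest cluster stood for each of 30827 genes. The number of arrays limits the precision.

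A model with 1 mean per genotype was fitted to all 24 arrays with limma 3.58.1 (R 4.3.3), without a block or covariate, and p-values were adjusted by Benjamini-Hochberg over all genes of a comparison (threshold 0.05). It was tested on simulated data, as was the correlation test of 100000 resamples (Python 3.11.15, scipy 1.17.1).

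Probe sets were matched to the members by symbol alone, but the set of members, the marker and pathway lists and the promoter motifs were chosen with earlier results of these data known. Named from the pathway list were called genes and the 3 smallest p-values per comparison. Alternatives covered centring, filters, limma settings, covariates, the code letter as a block and leaving out arrays.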

Additional observations from a re-analysis of the deposited data

Results flagged for a closer look

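In 27 groups (9 genes in 3 genotypes), 4 single arrays lay far from the rest of their group, as the gap to the nearest array exceeded the 95% critical value of Dixon's test. Chance flags about 1 in 20 groups. Bmp3 was 7.22 on WT A5, 0.74 above the next WT array. Bmp4 was 9.79 on WT A2, 0.61 below the next. Grem1 was 8.70 on ApcKO A9, 0.49 below the next ApcKO array, and Chrdl1 was 6.19 on ApcKO B4, 0.50 below the next. Without A9, Grem1 was at 0.025 in IhhKO_ApcKO minus ApcKO, and without B4 Chrdl1 was at -0.30 there, both uncalled.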

How the results depend on the processing

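Over 38 settings per comparison, 0 of 9 members were called in any comparison under any setting, and the lowest limma adjusted p was 0.178 (Grem1, IhhKO_ApcKO minus WT, with the code letter as a block) and 0.377 without that block. Of 1023 member differences 104 turned sign, 12 of them by more than 1 SE, all with the letter as a block. These were, in IhhKO_ApcKO minus ApcKO, Bmp4 at 0.12, Bmp7 at 0.33, Grem1 at -0.33, Nog at -0.13 and Chrd at -0.059. In ApcKO minus WT they were Bmp5 at -0.13, Chrd at 0.041 and Chrdl1 at 0.051, and in IhhKO_ApcKO minus WT Bmp2 at 0.20, Bmp7 at 0.29, Grem1 at -0.87 and Nog at -0.088. The block is told from genotype only by A9 and B9, the lowest arrays of their groups for Grem1. Outside the block, Chrdl1 in IhhKO_ApcKO minus WT lay between -0.43 and -0.28, and with the block at -0.0095. Its unadjusted limma p was under 0.05 under 36 of the 38 settings. These settings refit the same arrays, most of them without a single array, so they are not independent of each other. Over all genes, the 14 calls of IhhKO_ApcKO minus ApcKO became 8 with median centring, 23 in the upper part of genes by mean, 65 with array weights, 53 with the letter block, 39 without A9 and B9, and 8 to 41 without single arrays (41 without B9, 25 without A9, 9 without B4, B5, C1 or C7, 8 without C6). The 0 calls of ApcKO minus WT became 113 with the letter block. The 25 calls of IhhKO_ApcKO minus WT became 16 with centring, 45 with array weights, 84 with the block, 39 over protein-coding genes, 72 without A9 and B9, 7 with only the arrays of both groups, and 12 to 67 without single arrays (67 without B9, 12 without A5 or A6, 13 without C4, 15 without A4, A8 or C6, 16 without A1 or C7). Within IhhKO_ApcKO, ApcKO or WT alone, 0 of the 5 member pairs and 0 of the 6 marker relations passed. Median centring added Bmp2 with Bmp5 (r = 0.59) and the PDGFRA-high list with Bmp2 (0.58) and Bmp4 (0.62), and uncentred log2 values without removal of genotype means added Bmp2 with Bmp5 (0.52) and the CD34-positive list with Bmp7 (-0.52). Array codes of different genotypes share numbers (such as C1, B1 and A1), and nothing in the labels says that a number pairs arrays. With the number as a replicate block, chosen after seeing the data, 16, 0 and 14 genes were called in IhhKO_ApcKO minus ApcKO, ApcKO minus WT and IhhKO_ApcKO minus WT, and 0 members. It was the 1 setting of 38 in which Grem1 had an unadjusted limma p under 0.05 in IhhKO_ApcKO minus ApcKO (0.025). In IhhKO_ApcKO minus WT, Grem1 did so under 2 of 38 settings. Its lowest unadjusted limma p there was 0.0031 with the letter block and 0.025 without it, where its differences lay between 0.052 and 0.19. Deviations of same-numbered arrays correlated with r over 0.1 in 12 of 20 pairs (mean r 0.13). Differently numbered arrays of different genotypes did so in 43 of 171 pairs (mean r -0.013). Of 24 arrays, 5 correlated best with their own number.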
